A study of Mus musculus with 6 samples.

Results

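Sarcomere and muscle excitation genes encode the parts of the contractile unit of striated muscle and the proteins that couple a nerve signal to contraction. The 34 genes described here were taken as a list of symbols and were found in all 6 gene-by-cell matrices, out of 28000 genes counted. They were measured in the muscle cells of embryonic mouse flank skin, in other skin cells of the same libraries as a background, at embryonic day (E) 13.5 and 14.5, and in 2 genotypes. The muscle cells were split by their unique molecular identifiers (UMIs, each standing for a captured RNA molecule). Progenitors held at least 2 UMIs of Pax7 and Myf5 together and at most 1 of Myog. Myog cells held at least 2 UMIs of Myog, the regulator that turns on terminal differentiation of muscle. Neither Pax7, Myf5 nor Myog is among the 34 genes. The 6 libraries held 1138 progenitors and 1191 Myog cells among 40653 cells kept.

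In a sarcomere, actin thin filaments slide past myosin thick filaments when calcium binds the troponin complex and tropomyosin moves off the myosin sites. Titin and nebulin set the length and place of the filaments, and alpha-actinin and its partners anchor the thin filaments at the Z disc. Acetylcholine receptors at the nerve contact depolarise the membrane, and the ryanodine receptor then releases calcium from stores that calsequestrin buffers. Embryonic muscle is known for using developmental and cardiac forms of several of these proteins before the adult fast and slow forms.

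The study compared dorsolateral skin of CD1 control embryos, labelled WT, with that of embryos labelled PDGFRalphaCreER(Lo);beta-catfl/fl;mTmG (LOF). In the LOF embryos a tamoxifen-dependent Cre under Pdgfra, a gene of dermal fibroblasts, acts on floxed beta-catenin, and mTmG is a reporter that changes from tdTomato to eGFP on Cre action. Tamoxifen at E11.5 is recorded for the LOF embryos, and none is recorded for the controls, so genotype and tamoxifen cannot be told apart. There were 2 control libraries at E13.5, 2 at E14.5, and 1 LOF library at each stage, each from 3 to 4 pooled embryos, from sorted live cells. The control libraries are named C1 and C2 at each stage, by replicate number. Values in sentences below run in a fixed order: E13.5-C1, E13.5-C2, E14.5-C1, E14.5-C2, E13.5-LOF and E14.5-LOF.

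The libraries held 53461986 to 86446575 UMIs and 5850 to 8922 cells, with 116 to 269 Myog cells and 110 to 271 progenitors each. Any pair of libraries shared 44 to 101 cell barcodes. Both E14.5-C1 and E14.5-LOF stood apart in both muscle classes, keratinocytes and fibroblasts: Hist1h1b, a histone gene, measured 31.8, 21.4, 732, 32.3, 24.0 and 889 UMIs per 1000000 (CPM) in Myog cells, and Gm42418 was at 429.9 and 477 CPM in the same pair against 55.9 to 73.3 CPM in the others. Gstp1 was high in both C2 libraries, at 89.5 and 79.2 CPM against 14.5 to 21.8 CPM. The reporter went against the WT label: tdTomato was read in keratinocytes of the 4 libraries labelled WT at 38.2 to 1024 CPM, and eGFP in their fibroblasts at 128 and 94.7 CPM in C2 against 2.91 and 5.55 CPM in C1. "Control" below means labelled WT. Ctnnb1, the targeted gene, was at 175, 160.5, 138, 127, 169 and 126 CPM in Myog cells and at 197, 183, 187, 178, 255 and 205 CPM in dermal fibroblasts. These are 3′ tags, and the labels do not give the deleted exons, so the values do not check the deletion.

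Promoters of 27 of the 34 genes were matched in RefSeq (GRCm38.p6). The E-box CANNTG is the short element bound by myogenic regulators such as Myod1 and Myog, and CAGCTG is a form of it. CAGCTG was found in the 250 bases before the start of 12 of the 27 genes (44.4%), against 12.8% of 27025 promoters. CANNTG, which includes CAGCTG, was found in 85.2% of the 27 against 66.0%. TATAAA, on either strand, was found in 22.2% against 13%. A match describes letters and shows no binding. 5 promoters are printed because they belong to genes with large differences between the muscle classes below: the receptor subunit Chrna1, the thin filament genes Tnnt2 and Acta1, and the thick filament genes Mylpf and Myh3. Each line gives the 250 bases before the RefSeq start, 5′ to 3′ on the gene's strand, and capitals mark CAGCTG, the CArG element, to which serum response factor binds, or TATAAA.
Chrna1: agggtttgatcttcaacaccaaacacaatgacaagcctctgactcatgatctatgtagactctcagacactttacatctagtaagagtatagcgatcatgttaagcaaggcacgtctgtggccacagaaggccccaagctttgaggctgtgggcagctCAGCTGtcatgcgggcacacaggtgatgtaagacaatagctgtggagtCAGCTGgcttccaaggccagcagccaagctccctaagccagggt
Tnnt2: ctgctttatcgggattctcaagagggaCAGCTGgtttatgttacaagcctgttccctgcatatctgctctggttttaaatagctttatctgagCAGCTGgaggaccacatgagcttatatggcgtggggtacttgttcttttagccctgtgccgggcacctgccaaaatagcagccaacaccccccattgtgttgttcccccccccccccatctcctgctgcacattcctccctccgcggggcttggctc
Mylpf: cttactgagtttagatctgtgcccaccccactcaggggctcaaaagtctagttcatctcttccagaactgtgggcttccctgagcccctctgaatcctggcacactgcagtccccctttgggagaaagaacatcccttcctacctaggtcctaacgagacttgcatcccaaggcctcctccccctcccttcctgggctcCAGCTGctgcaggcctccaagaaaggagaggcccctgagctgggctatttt
Acta1: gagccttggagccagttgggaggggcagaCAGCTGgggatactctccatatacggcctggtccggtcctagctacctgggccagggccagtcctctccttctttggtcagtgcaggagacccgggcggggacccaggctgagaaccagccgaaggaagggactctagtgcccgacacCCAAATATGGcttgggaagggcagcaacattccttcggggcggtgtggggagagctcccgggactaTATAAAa
Myh3: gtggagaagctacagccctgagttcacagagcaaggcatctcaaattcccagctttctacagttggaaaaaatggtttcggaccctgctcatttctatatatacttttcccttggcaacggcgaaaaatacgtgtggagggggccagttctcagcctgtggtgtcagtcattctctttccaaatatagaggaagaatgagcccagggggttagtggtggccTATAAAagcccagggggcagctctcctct
The Chrna1 window (GRCm38, chr2:73580339-73580588, minus strand) held CAGCTG starting 92 and 44 bases before the start. The Tnnt2 window (chr1:135836084-135836333, plus strand) held it at 223 and 157 bases. The Mylpf window (chr7:127211358-127211607, plus strand) held it at 51 bases and lies in an intron of a longer annotated transcript. The Acta1 window (chr8:123894776-123895025, minus strand) held CAGCTG at 221, a CArG element at 73 and TATAAA at 7 bases. The Myh3 window (chr11:67078050-67078299, plus strand) held no CAGCTG and a TATAAA at 29 bases. None of the 5 windows overlaps an annotated exon. Some members are neighbours: Chrnd and Chrng lie 4586 bases apart on chromosome 1, Tnni1 and Tnnt2 25364 bases apart on chromosome 1, Tnni2 and Tnnt3 54425 bases apart on chromosome 7, and Myh3 and Myh8 174832 bases apart on chromosome 11.

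The first comparison asked which of these genes separate Myog cells from Pax7 and Myf5 progenitors of the same library. Summed over the 34 genes, Myog cells held 10662, 9764, 13201, 11198, 9754 and 15425 CPM, and progenitors held 2651, 3012, 2135, 1827, 2278 and 2258 CPM. The lowest Myog value was over the highest progenitor value. In such sums fewer cells of a state and less RNA per cell cannot be told apart. In single Myog cells the genes took a median of 0.611 to 1.0% of UMIs, with a highest cell of 5.53 to 17.2%, against a median of 0.163 to 0.284% in progenitors and 0.0201 to 0.0412% in keratinocytes. After thinning each cell to 3000 UMIs, the median Myog cell showed 6 to 9 of the 34 genes and the fullest cell of a library 22 to 28. Myog cells thus spanned a wide range of sarcomere gene content within every library.

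Class sums per library were tested with edgeR's quasi-likelihood test with the library as a block, with Benjamini-Hochberg adjustment over the 10955 genes that passed the filter. Of all genes tested, 22.5% were higher in Myog cells. Of the 34 members 32 passed the low-count filter, 30 were higher in Myog cells, 0 were lower, and Myh8 and Mybpc1 did not pass. Members near 0 in progenitors entered the test through their level in Myog cells, so the count describes them and supports nothing. The median log2 difference was 3.91 over the members tested and 0.0028 over all genes tested. In 28 of the 34 genes the CPM was higher in Myog cells in 6 of 6 libraries. No share over all genes is set beside that count, so it too describes the members and supports nothing. Under library totals in place of TMM factors the median of all genes was -0.15, a shift of over 0.1, and 1576 genes were higher and 3451 lower against 2463 and 2233, while 30 members were higher under either scaling. All members higher in Myog cells kept that sign under each alternative run.

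**Figure D1:**
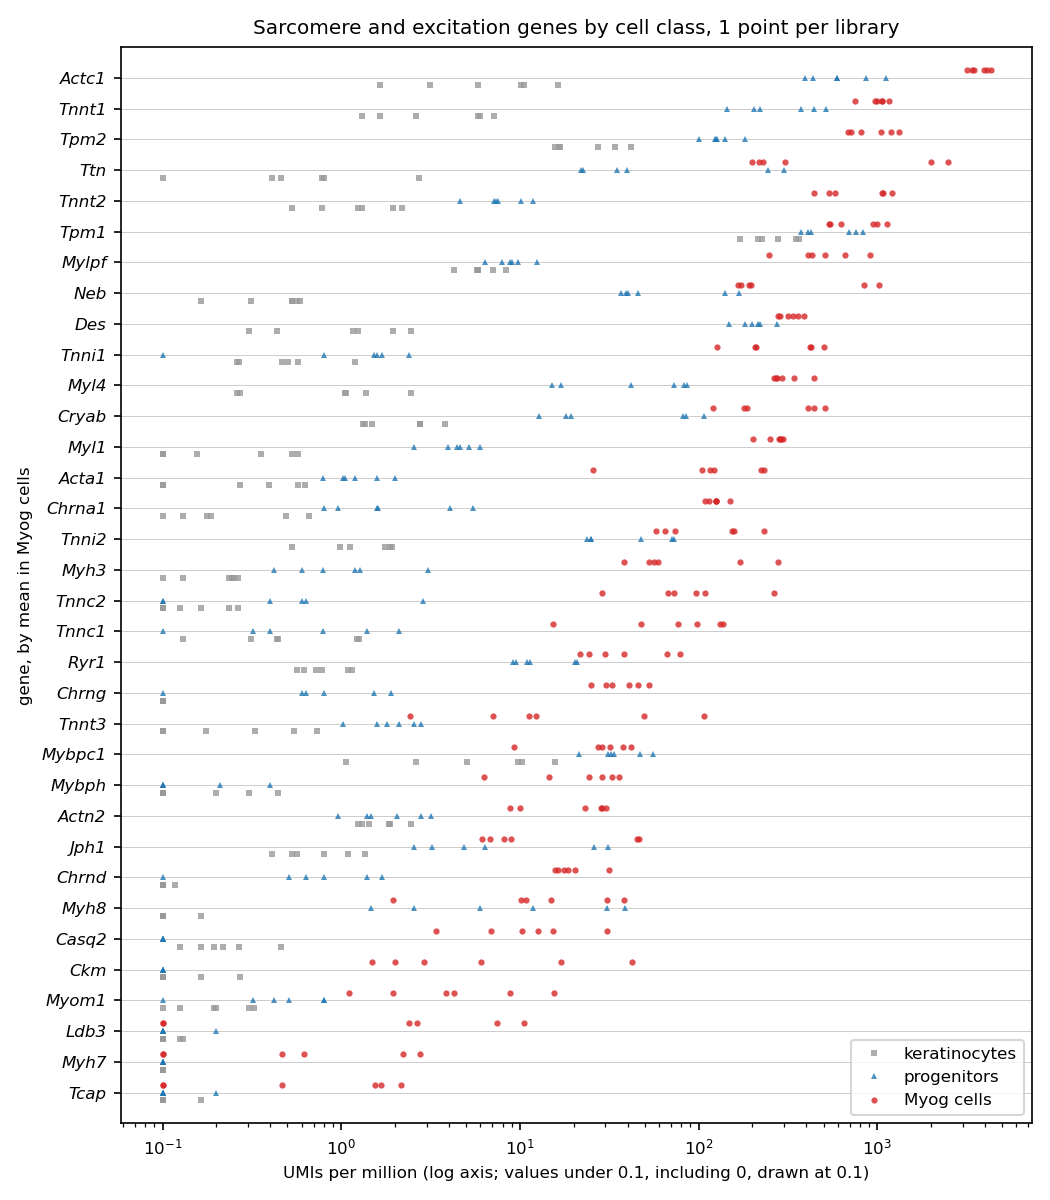
Levels of the 34 genes in CPM (log axis) in Myog cells, progenitors and keratinocytes, with 1 point per library and values under 0.1 drawn at 0.1. Actc1 leads in Myog cells at 3181 to 4307 CPM, progenitors reach a mean of at least 10 CPM for 14 genes, and Tpm1 is above 100 CPM in keratinocytes too. Values of the muscle classes overlap for several genes, among them Myh8, Mybpc1, Ttn, Tnni2, Tnnt3, Tpm1 and Jph1.

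The actins are given first. Actc1 (GRCm38, chr2:114047282-114053548, minus strand), the actin of the heart and of embryonic skeletal muscle, was the most abundant member in Myog cells at 4307, 4087, 3388, 3931, 3465 and 3181 CPM. In progenitors it measured 863, 1119.7, 396, 592, 599 and 439 CPM, a log2 difference of 2.71 (SE 0.20, adjusted p = 0.00017). Each Myog value lay above every progenitor value. Acta1, the actin of adult skeletal muscle, measured 122, 25.8, 105, 116, 225 and 231 CPM in Myog cells and 0.792 to 2.0 CPM in progenitors, a log2 difference of 6.89 (SE 0.14, adjusted p = 8.9e-19). Its lowest Myog value was E13.5-C2. Pooled over libraries, Acta1 was at 1.40 CPM in progenitors and at 2.89 CPM in endothelial cells, so its progenitor level is near that background. With cells thinned to 3000 UMIs, Actc1 was detected in 92.5 to 97.0% of Myog cells (95.7 to 100% without thinning), in 57.9 to 80.3% of progenitors, and in 0.858 to 3.40% of keratinocytes. Every thinned Myog cell with an Acta1 UMI, 8 to 43 per library, also had an Actc1 UMI. The 2 actins have nearly the same coding sequence, and how reads that match both were counted is not given in the sources used here.

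Troponin T, which ties the troponin complex to tropomyosin, was read from 3 genes. Tnnt1, the slow skeletal form, was already present in progenitors at 444, 515, 219.6, 144, 376 and 205 CPM and reached 1061, 1162, 975, 746, 996 and 1068 CPM in Myog cells, a log2 difference of 1.90 (SE 0.25, adjusted p = 0.0021). Tnnt2, the cardiac form, was at 4.60 to 11.9 CPM in progenitors and at 538, 442, 1067, 1071, 579 and 1208 CPM in Myog cells, a log2 difference of 6.69 (SE 0.19, adjusted p = 8.5e-08). Levels of the 2 forms thus lay closer to each other in E14.5 Myog cells than in progenitors. Tnnt3, the fast form, was at 2.43 to 108 CPM in Myog cells and at 1.02 to 2.80 CPM in progenitors, and it was also read outside muscle, with 42.3% of its UMIs in Myog cells.

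Troponin I inhibits and troponin C senses calcium. Tnni1, the slow inhibitor, was at 0 to 2.40 CPM in progenitors and at 209, 126, 427, 418, 207 and 505 CPM in Myog cells. Its log2 difference was 7.83 (SE 0.16), while Tnni2, the fast inhibitor, gave 1.63 (SE 0.09). Tnni2 was measured in progenitors at 25.0, 25.0, 72.7, 47.5, 23.6 and 70.8 CPM and in Myog cells at 73.8, 57.4, 154, 157, 64.9 and 231 CPM. Macrophages held Tnni2 at 17.6 to 55.6 CPM, and 48.0% of all its UMIs were in Myog cells. Tnnc1, the slow and cardiac calcium sensor, and Tnnc2, the fast one, were each at 0 to 2.87 CPM in progenitors and were higher in Myog cells by 6.64 (SE 0.19) and 7.06 (SE 0.17) on the log2 scale. Pooled over libraries, progenitors held Tnni1, Tnnc1 and Tnnc2 at 1.40, 1.07 and 0.86 CPM. Endothelial cells held Tnni1 at 5.78 and Tnnc2 at 2.10 CPM, and dermal fibroblasts held Tnnc1 at 1.36 CPM. The log2 differences of Tnni1, Tnnc1 and Tnnc2 thus set Myog cells against a level near background. Tnnc1 overlaps Nisch and Tnnc2 overlaps Ube2c on the other strand, and whether counting used strand is not given in the sources used here. Tpm2, a tropomyosin, was higher by 2.97 (SE 0.08), from 100.1 to 182 CPM to 683 to 1317 CPM. Tpm1, which also has smooth muscle and cytoskeletal forms, was higher by 0.61 (SE 0.05) and had 6.0% of its UMIs in Myog cells. Its mean was 1057 CPM in pericytes and 786 CPM in dermal fibroblasts against 796 CPM in Myog cells.

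Of the thick filament genes, the embryonic heavy chain Myh3 was at 56.0, 38.4, 171, 59.2, 53.1 and 278 CPM in Myog cells and at 0.421 to 3.06 CPM in progenitors, a log2 difference of 6.79 (SE 0.26, adjusted p = 1.7e-09). Pooled over libraries, Myh3 was at 1.02 CPM in progenitors and 0.84 CPM in dermal fibroblasts, so its progenitor level is near that background. Myh8, the perinatal heavy chain, behaved otherwise: it measured 10.2, 1.95, 30.6, 10.8, 14.9 and 38.3 CPM in Myog cells and 1.47, 2.55, 38.7, 11.9, 6.00 and 30.6 CPM in progenitors. The classes overlapped, with a log2 difference of 0.70 (SE 0.33, adjusted p = 0.13), and Myog cells were higher in 3 of 6 libraries. Progenitors held 33.6% of all Myh8 UMIs and Myog cells 44.4%. Myh7, the slow and cardiac heavy chain, was read as 28 UMIs in Myog cells and none in progenitors, at least 9.31-fold higher against a floor of 3 counts over the group.

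The light chains Myl1 and Mylpf, of fast fibres, were at 202 to 296 CPM and 247 to 914 CPM in Myog cells and at 2.55 to 6.00 CPM and 6.34 to 12.4 CPM in progenitors. Their log2 differences were 5.98 (SE 0.10) and 5.92 (SE 0.16). Keratinocytes held Mylpf at 4.27 to 8.38 CPM, so its progenitor level is near that background. Myl4, the embryonic and atrial light chain, was higher by 2.84 (SE 0.38) on the log2 scale, and its progenitor values of 42.1, 73.0, 15.2, 86.4, 83.0 and 16.9 CPM were lowest in E14.5-C1 and E14.5-LOF. Mybph and Myom1, which bind the thick filament, were higher by 7.19 (SE 0.31) and 3.38 (SE 0.48). Pooled over libraries, Myom1 was at 8.30 CPM in pericytes against 5.68 CPM in Myog cells, which held 21.7% of its UMIs. Myom1 shares bases with a gene on its own strand, and counting may split their reads. Mybpc1, the slow myosin-binding protein C, measured 28.8, 27.2, 32.0, 9.23, 37.8 and 42.0 CPM in Myog cells against 32.2, 33.7, 47.1, 21.4, 31.2 and 55.5 CPM in progenitors. Its log2 difference was -0.10 (SE 0.12, adjusted p = 0.52), and Myog cells were higher in 1 of 6 libraries. Dermal fibroblasts held 28.0% of all Mybpc1 UMIs, keratinocytes 23.1% and Myog cells 15.1%. Pooled levels were 5.82, 8.86 and 32.1 CPM in the same order.

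Of the scaffold genes, Ttn, Neb and Des were read in both muscle classes. Titin, Ttn (chr2:76703980-76982547, minus strand, a gene span of 278568 bases), was at 229, 218, 1987, 303, 199.7 and 2488 CPM in Myog cells and at 34.7, 22.0, 246, 39.6, 22.4 and 299 CPM in progenitors, a log2 difference of 3.18 (SE 0.07, adjusted p = 8.9e-19). Nebulin, Neb (chr2:52136647-52378474, minus strand, 241828 bases), was higher by 2.52 (SE 0.11). Desmin, Des, the intermediate filament of muscle, differed little, at 278 to 387 CPM against 148 to 275 CPM, a log2 difference of 0.84 (SE 0.06, adjusted p = 4.8e-10). The Z disc genes Actn2 and Ldb3 were higher by 3.92 (SE 0.27) and 5.59 (SE 0.68), with Ldb3 at 0 to 10.5 CPM in Myog cells and 2.75 to 12.5 CPM in pericytes. Under DESeq2 the adjusted p of Ldb3 was 0.22. In progenitors Ldb3 was read as 1 UMI. Tcap, the titin cap, also had 1 UMI in progenitors, stayed at 0 to 2.16 CPM in Myog cells and was below the filter.

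Among the excitation genes, the receptor subunit Chrna1 was at 149, 124, 125, 125, 109 and 114 CPM in Myog cells and at 0.799 to 5.47 CPM in progenitors, a log2 difference of 5.72 (SE 0.20, adjusted p = 2.3e-10). Its mean over the 6 Myog libraries was 125 ± 14 CPM (SD, n = 6), with the stages overlapping. Chrng, the fetal subunit, and Chrnd were higher by 5.31 (SE 0.20) and 4.24 (SE 0.26). Ryr1, the calcium release channel, was higher by 1.71 (SE 0.14) and was at 9.19 to 20.8 CPM in progenitors. Jph1, which holds membrane and calcium store together, was higher by 0.97 (SE 0.15), and with cells thinned to 3000 UMIs its adjusted p was 0.15. Dermal fibroblasts held 37.1% of all Jph1 UMIs and Myog cells 23.4%, at pooled levels of 2.95 and 18.9 CPM. Casq2, a calsequestrin, and Ckm, the muscle creatine kinase, had no UMI in progenitors and were at least 87.1-fold and 64.8-fold higher in Myog cells against a floor of 3 counts over the group. Cryab, a small heat shock protein that binds desmin, was higher by 2.86 (SE 0.16) but was also at 95.9 to 458 CPM in pericytes.

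Genes of the same structures outside the list were read in the same fit, from lists of known function. As with the members, genes near 0 in progenitors entered the test through their level in Myog cells. The counts and medians below therefore describe the lists and support nothing. Of 40 other sarcomere and cytoskeletal genes 22 were tested, 17 were higher in Myog cells and 3 lower, with a median log2 difference of 3.85. The highest were the filament stabiliser Klhl41 at 8.60 (SE 0.23), the myosin chaperone Unc45b at 8.47 (SE 0.48), Klhl40 at 7.60 (SE 0.40) and Myom3 at 7.30 (SE 0.67), and the lower ones were Dmd, Fhl1 and Tpm3. Of 20 other excitation and calcium genes 13 were tested and 12 were higher, among them Hrc at 7.67 (SE 0.40), the voltage sensor adaptor Stac3 at 6.20 (SE 0.25), the calcium pump Atp2a1 at 6.14 (SE 0.23) and its inhibitor Sln at 5.81 (SE 0.28). Of 8 other synapse genes 6 were tested, 5 were higher and Lrp4 was lower, with Dok7 at 3.65 (SE 0.17). Of 10 muscle energy genes 8 were tested and 7 were higher, led by the muscle cytochrome oxidase subunit Cox6a2 at 8.70 (SE 0.29). Of 11 myogenic regulators 7 were tested and 6 were higher, with the fusion genes Mymk at 8.11 (SE 0.17) and Mymx at 7.71 (SE 0.15). Of 7 cell cycle genes 4 were lower, with Mki67 at -0.66 (SE 0.08), and the inhibitors Cdkn1a and Cdkn1c were higher by 5.87 (SE 0.19) and 1.09 (SE 0.04).

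Other cell types were looked for in the same cells. The 7 cardiac genes, which include Myh6 and Nppa, summed to 0 to 2.55 CPM in Myog cells and progenitors, so the cardiac forms above were read without the defining heart genes. The smooth muscle list summed to 1339.8, 1453, 585, 612, 1260.3 and 556 CPM in Myog cells and to 223 to 575 CPM in progenitors. Of the 4 smooth muscle genes tested, Acta2 and Smtn were higher in Myog cells and Tagln lower. The keratinocyte list summed to 27.2 to 214 CPM and the fibroblast list to 213 to 496 CPM in Myog cells. Keratinocyte genes were higher in Myog cells for 3 of 4, by 0.54 to 0.60 on the log2 scale, and of 4 fibroblast genes none passed. Of 2 pericyte genes tested Abcc9 was higher, by 1.58 (SE 0.45), and of 2 tendon genes Tnc was lower, at -1.31 (SE 0.17). Of 3 macrophage genes none passed, with a median of 1.17, and that list summed to 2.59 to 84.6 CPM in Myog cells and 3.19 to 11.2 CPM in progenitors. The part of these lists in the class differences was not tested. With cells that also met another class left out, 30 members were higher. Against the Myog level the background of free RNA was low for most members: the keratinocyte mean was at most 1% of the Myog mean for 20 of 34 genes, and another class exceeded 20% of it for 10. Against the progenitor level it was not low for Acta1, Tnni1, Tnnc1, Tnnc2, Myh3 and Mylpf, among others, as the values above show. Actc1 measured 16.4, 10.6, 1.65, 5.82, 10.1 and 3.12 CPM in keratinocytes.

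In each gene family the share of UMIs was computed within Myog cells, since each captured molecule gives a UMI at its 3′ end whatever its length. Capture can still differ between genes. Intervals cover counting error only, and 2 libraries against 2 cannot reach p = 0.05 in an exact permutation test, so the shares are described and not tested. Troponin C is given first. Tnnc1 made up 64.4, 77.4, 30.5, 13.8, 67.2 and 22.3% of troponin C UMIs, with 95% Clopper-Pearson intervals of 61.5 to 67.3% in E13.5-C1 and 8.63 to 20.5% in E14.5-C2, from 145 to 1106 UMIs per library. Every E13.5 library lay above every E14.5 library, with control means of 70.9% ± 9.16 and 22.1% ± 11.8 (SD, n = 2 each).

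Tnnt2 made up 33.4, 27.5, 51.0, 58.5, 36.6 and 50.7% of troponin T UMIs, and Tnnt3 0.151 to 4.51%. Tpm1 made up 54.0, 62.4, 30.9, 34.2, 58.3 and 32.2% of the 2 tropomyosins. Both families thus split by stage in all 6 libraries, with the cardiac troponin T higher and Tpm1 lower at E14.5. Troponin I kept its proportions: Tnni1 made up 73.9, 68.7, 73.5, 72.7, 76.1 and 68.6%, with overlapping stages. Actin remained mostly Actc1, with Acta1 at 2.76, 0.627, 3.00, 2.87, 6.09 and 6.78%, highest in both LOF libraries. Myh3 made up 75.6 to 95.2% of the 3 heavy chains read, and Chrng 15.1 to 24.0% of the 3 receptor subunits.

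**Figure D2:**
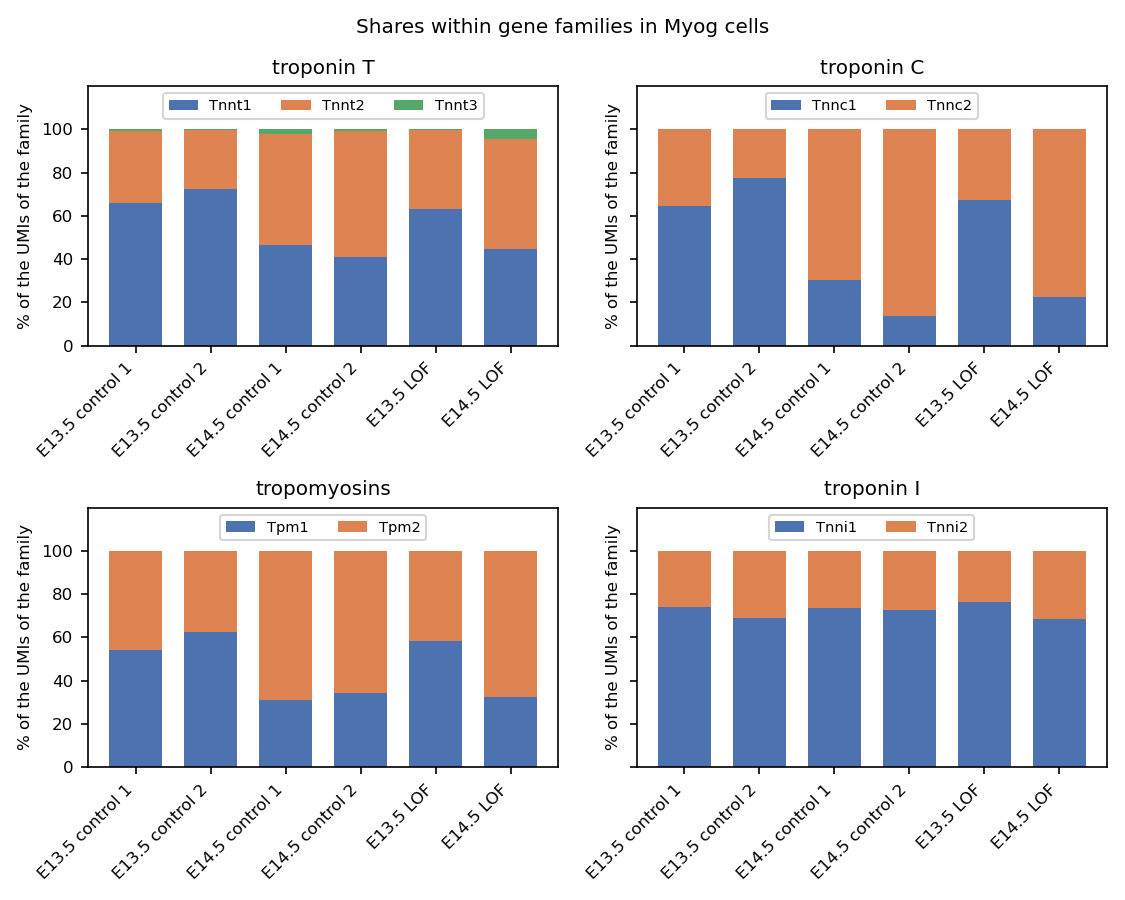
Share of each gene in the UMIs of its family in Myog cells, in percent, with 1 bar per library (control 1 is C1, control 2 is C2). Tnnc1 lies between 64.4 and 77.4% in the E13.5 libraries and between 13.8 and 30.5% in the E14.5 libraries, while Tnni1 lies between 68.6 and 76.1%.

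The second comparison asked how the genes differ between E13.5 and E14.5 within the 4 control libraries. The median Myog cell held 20562.5 UMIs in E13.5-C1, 14282 in E13.5-C2, 14006 in E14.5-C1 and 10976.5 in E14.5-C2. The cut of 2 Myog UMIs was applied at full depth, before any thinning, so a deeper cell meets it at a lower Myog share. The part of depth in the stage values was not tested. In Myog cells 9122 genes were tested and 0.0% were called, with 971 genes at an unadjusted p under 0.05. Of 30 members tested 0 were called and 17 had an unadjusted p under 0.05 in edgeR's quasi-likelihood test, 20 being positive and 10 negative. The median log2 difference, E14.5 minus E13.5, was 0.65 over the members and 0.039 over all genes tested. Several marker lists of other cell types had medians at least as far from 0 in the same fit, with 0 genes called: 1.74 over 3 macrophage genes, 0.92 over 4 keratinocyte genes, 0.68 over 4 fibroblast genes and -1.50 over 4 smooth muscle genes. For E13.5-C1, E13.5-C2, E14.5-C1 and E14.5-C2 the keratinocyte list summed to 87.5, 27.2, 48.7 and 198 CPM and the macrophage list to 2.59, 34.5, 9.28 and 84.6 CPM, E14.5-C2 being the highest of the 4 for both. Their part in the members' values was not tested. Other sarcomere genes had a median of 0.47 over 18 tested. The number of calls turned on the tool and the libraries, over all genes as over the members. Counts over all genes under these settings also rose from 0 and are given in the closing sections. DESeq2 called 5 members (Tnnt2, Tnni1, Tnni2, Tnnc1 and Cryab) and no low-count filter gave 15. Leaving out a library gave 2 to 12, with 2 when E13.5-C1 or E13.5-C2 was left out, 9 for E14.5-C1 and 12 for E14.5-C2. A fit of all 6 libraries with the inferred batch as a term also gave calls. Its stage value came from E14.5-C2 against E13.5-C2 alone, since each other batch held a single stage.

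Both E14.5 controls lay above both E13.5 controls for 14 of the 30 members (15.2% of all genes tested did so) and below for 6 (26.4%). The regulatory thin filament genes are given first. Tnnt2 averaged 489.8 ± 67.6 CPM (SD, n = 2) in controls of the earlier stage and 1069 ± 2.84 CPM (SD, n = 2) in those of the later, a log2 difference of 1.19 (SE 0.23, adjusted p = 0.24). Tnni1 gave 1.40 (SE 0.28, adjusted p = 0.24) and Tnni2 1.31 (SE 0.25, adjusted p = 0.24). Tnnc1 gave the reverse, from 132 and 98.2 CPM to 47.8 and 15.4 CPM, a log2 difference of -1.79 (SE 0.43, adjusted p = 0.26). Tpm1 averaged 1039.9 ± 129.6 CPM and then 540.1 ± 4.23 CPM, at -0.89 (SE 0.24), while Tpm2 gave 0.65 (SE 0.22). Cryab gave 1.70 (SE 0.29, adjusted p = 0.18), from 178 and 121 CPM to 411 and 511 CPM.

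The same direction was seen between the LOF libraries, and between the C2 libraries, which share high Gstp1. The C2 libraries are part of the control test above. For each gene listed here both E14.5 controls lay on the same side of both E13.5 controls. The direction in the C2 pair was thus fixed in advance, and that pair adds only a size. In the C2 pair the log2 ratio with 1 CPM added was 1.27 for Tnnt2, 1.72 for Tnni1, 1.44 for Tnni2, -2.60 for Tnnc1, -1.06 for Tpm1 and 2.07 for Cryab. In the LOF pair it was 1.06, 1.28, 1.82, -0.84, -0.67 and 1.23 in the same order. Of the 30 members 22 were positive between the C2 libraries, with a median of 0.61 against -0.093 over all genes. The LOF pair is not matched in the markers that set libraries apart, since E14.5-LOF is high in Hist1h1b and E13.5-LOF is not.

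**Figure D3:**
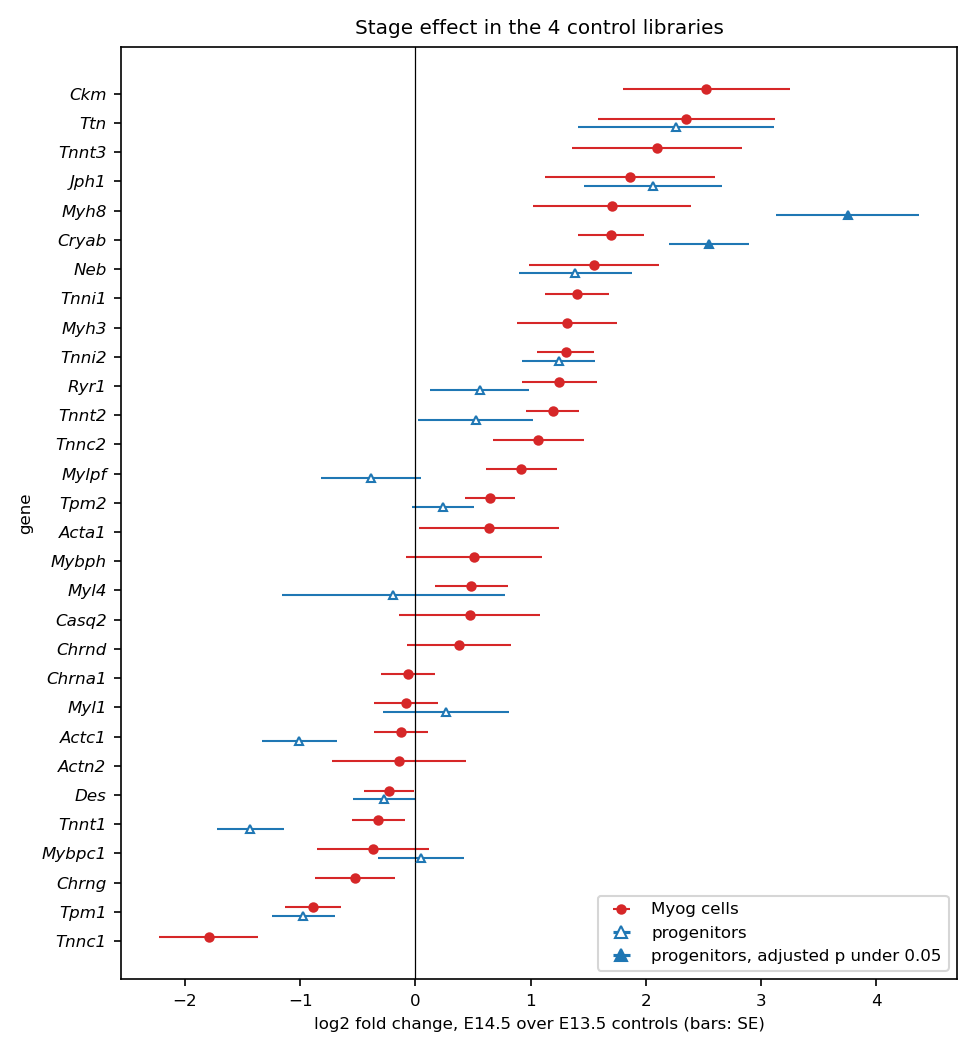
Log2 difference between E14.5 and E13.5 controls with a standard error derived from the F value of edgeR's test, for the members tested in Myog cells and in progenitors. Cryab is positive in both classes, Tnnc1 and Tpm1 lie below 0 in Myog cells, and Myh8 and Cryab are the members called in progenitors.

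Several members were high in the libraries that stood apart. In Myog cells 8 of 32 members tested were at least 2-fold higher in both E14.5-C1 and E14.5-LOF than in each other library (6.33% of all genes): Ttn, Neb, Jph1, Myh3, Tnnt3, Myh8, Myom1 and Ldb3. In progenitors Ttn, Neb, Jph1 and Myh8 did so (7.06%). The lower of the pair in Myog cells was 171 CPM for Myh3 against at most 59.2 CPM elsewhere, and 49.2 CPM for Tnnt3 against 12.3 CPM. Tnni1, Tnnc2, Tpm2, Ryr1 and Casq2 were also higher in the pair than in each other library, by less than 2-fold. In all 13 members were higher in the pair (31.5% of all genes). For Tnni1 the lower of the pair was 427 CPM against at most 418 CPM elsewhere, and for Tpm2 1199 CPM against 1044 CPM. The log2 ratio of Ttn between the stages was 3.11 for the C1 libraries and 0.47 for the C2 libraries, with 1987 CPM in E14.5-C1 and 303 CPM in E14.5-C2. The E14.5-LOF library, which also carries high Gm42418 and Hist1h1b, held 2488 CPM. Neb measured 192, 166, 846, 196, 172 and 1018 CPM and Jph1 8.14, 6.81, 46.4, 6.15, 8.88 and 45.4 CPM. Jph1 in E14.5-C2 was below both E13.5 controls. Ryr1 measured 21.6, 24.3, 66.4, 38.5, 29.8 and 78.8 CPM, with E14.5-C2 between the 2 levels. In thinned cells Ttn was detected in 39.8, 32.4, 83.4, 53.0, 37.4 and 89.6% of Myog cells (62.2 to 96.7% without thinning). The part of the difference between these libraries in the stage values of these 13 members was not tested. With that pair left out, 29 members were higher in Myog cells.

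**Figure D4:**
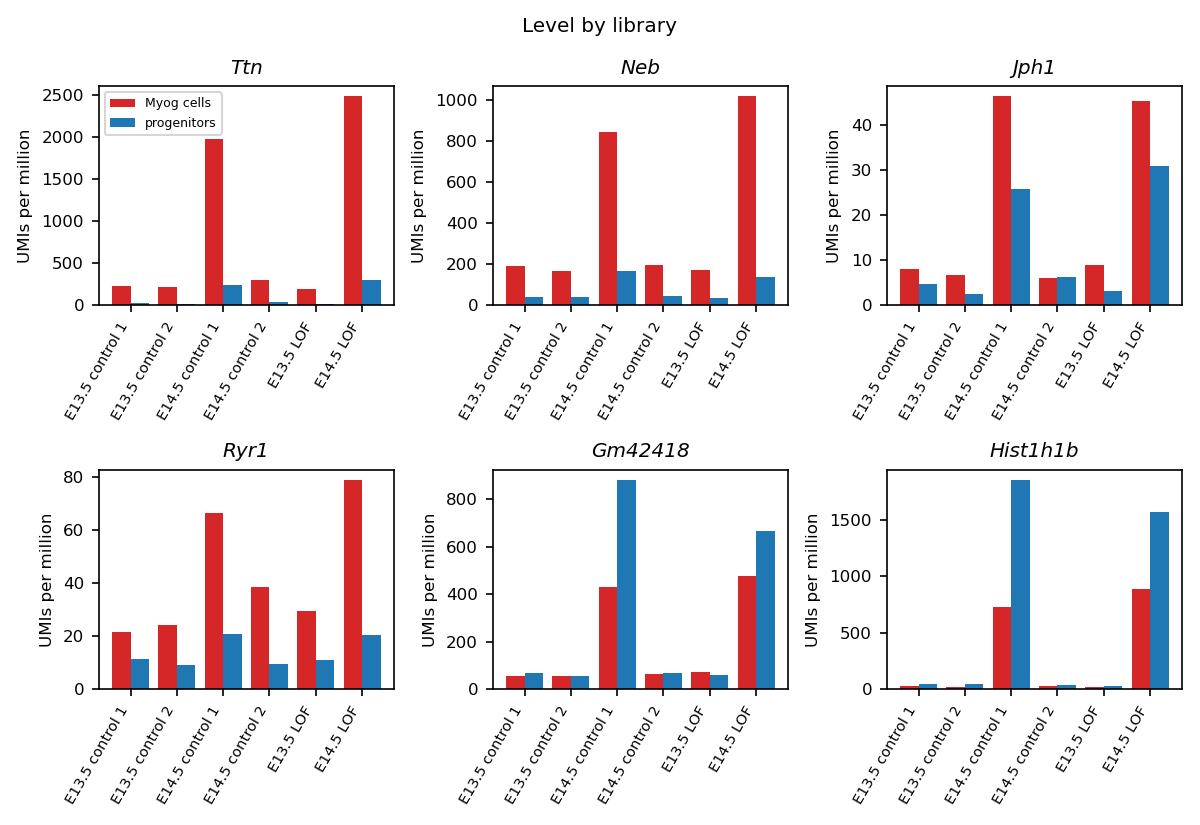
Bars give the CPM of Ttn, Neb, Jph1 and Ryr1, and of the check genes Gm42418 and Hist1h1b, in Myog cells and progenitors of each library (control 1 is C1, control 2 is C2). E14.5-C1 and E14.5-LOF hold Ttn at 1987 and 2488 CPM in Myog cells, the other 4 libraries lie between 199.7 and 303 CPM, and the check genes are high in the same pair.

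In progenitors 9526 genes were tested, of which 0.535% were higher at E14.5, and 17 members were tested, of which 2 were higher and 0 lower. Cryab measured 19.4, 12.8, 85.0, 108, 18.2 and 81.9 CPM, a log2 difference between control stages of 2.55 (SE 0.35, adjusted p = 0.011). All 3 E14.5 libraries were above all 3 E13.5 libraries, and the adjusted p was 0.14 with library totals and 0.057 in thinned cells. Myh8 gave 3.75 (SE 0.62, adjusted p = 0.026), with 38.7 and 30.6 CPM in the libraries that stood apart and at most 11.9 CPM in the others. Its adjusted p was 0.055 without E13.5-C1, 0.068 without E14.5-C1 and 0.30 with the inferred batch in the fit, where its log2 difference was 2.22. With library totals in place of TMM factors 0 members were called. Leaving out E14.5-C2 gave 10 members and 2315 genes, against 2 members and 74 genes. Lower calls then appeared, 6 members being higher and 4 lower, as they did with the replicate block (5 and 3), the inferred batch (1 and 3), no low-count filter (6 and 3) and DESeq2 (2 and 1). Tnnt1 gave -1.43 (SE 0.29, adjusted p = 0.055), from 444 and 515 CPM to 219.6 and 144 CPM. Both E14.5 controls lay above both E13.5 controls for 7 of the 17 members (20.7% of all genes) and below for 4 (22.1%). Of the lists outside the members, the smooth muscle genes Acta2 and Myl9 were lower in E14.5 progenitors, by -2.34 (SE 0.37) and -1.96 (SE 0.36) on the log2 scale.

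Whether the stage difference itself differed between the classes was tested with an interaction term in the 4 control libraries, over 10060 genes, 30 members among them. A larger value in Myog cells than in progenitors was called for 4 members (2.63% of all genes): Tnnt1 at 1.08 (SE 0.09, adjusted p = 1.4e-23), Mylpf at 1.03 (SE 0.33, adjusted p = 0.046), Tpm2 at 0.42 (SE 0.11, adjusted p = 0.0062) and Chrna1 at 2.09 (SE 0.63, adjusted p = 0.030). Chrna1 was below the low-count filter in progenitors, with 49 UMIs there over 6 libraries, and entered this fit through its level in Myog cells, so its call supports nothing and 3 members remain. Of these, Mylpf was near background in progenitors, at 9.29 CPM against 6.04 CPM in keratinocytes and 9.99 CPM in endothelial cells, pooled over libraries. Its call thus sets Myog cells against a level near background. Of the 30 members 17 passed the filter in progenitors alone. A smaller value was called for 2 members (2.17%): Myh8 at -2.27 (SE 0.51, adjusted p = 0.0011) and Cryab at -0.88 (SE 0.18, adjusted p = 0.00017). The control means of Tnnt1 at the earlier and later stage were 479.8 and 182 CPM in progenitors and 1112 and 860.5 CPM in Myog cells. Chrna1 in progenitors went from 5.47 and 4.08 CPM to 0.799 and 1.58 CPM, close to the keratinocyte level of 0.0780 to 0.660 CPM, while in Myog cells the 4 controls lay between 124 and 149 CPM. Without E13.5-C1, Myh8 turned to 0.15 (adjusted p = 0.99). Tnnt1 kept its call in every alternative run, and each of the other 5 lost it in at least 1.

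The third comparison asked how the LOF libraries differ from the controls, with stage as a term. In Myog cells 10156 genes were tested and edgeR called 0.0%. DESeq2 called 1, and 162 had an unadjusted p under 0.05. Of 32 members tested 0 were called and 3 had an unadjusted p under 0.05: Acta1 at 1.31 (SE 0.48), Ckm at 1.34 (SE 0.55) and Tnnc2 at 0.87 (SE 0.33), each with an adjusted p of 0.99. The median log2 difference, LOF minus control, was 0.47 over the members, 26 of them positive, and 0.011 over all genes tested. It was 0.30 over 21 other sarcomere genes and 0.34 over 8 muscle energy genes. For markers of other cell types, with 0 genes called, the median was 1.65 over 4 red cell genes, -1.42 over 3 macrophage genes and 0.40 over 4 keratinocyte genes. The red cell list summed to 912 CPM in E13.5-LOF, 10.8 CPM in E14.5-LOF and 18.6 to 199 CPM in the controls, and the part of these lists in the members' values was not tested. The LOF library was above both controls at both stages for 11 members (11.9% of all genes) and below for Actc1 and Chrna1 (10.3%). The Pdgfra driver was at 3.40 to 12.7 CPM in Myog cells, highest in the LOF libraries, and eGFP was at 33.3 and 21.6 CPM there against 3.71 to 9.24 CPM in the libraries labelled WT. In E13.5-LOF and E14.5-LOF, eGFP was at 359 and 328 CPM in dermal fibroblasts and 21.2 and 9.48 CPM in endothelial cells. It was at 10.5 and 9.86 CPM in macrophages and 6.85 and 4.56 CPM in keratinocytes. Of the Myog cells of these libraries, 27 and 26 also met another class and were kept. The source of eGFP in Myog cells was not tested.

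Acta1 at E13.5 was 122 and 25.8 CPM in the controls and 225 CPM in LOF, and at E14.5 105 and 116 CPM and 231 CPM. It was above the controls at either stage, while the E13.5 controls also stood far apart from each other. Ckm at E14.5 was 6.03 and 16.9 CPM in the controls and 42.3 CPM in LOF, and at E13.5 all 3 libraries lay between 1.48 and 2.92 CPM. Against the C1 library of the same stage, which shares the batch markers with the LOF library, 29 of 32 members were positive at E14.5 with a median log2 ratio of 0.31, and 17 of 32 at E13.5 with a median of 0.045. Over all genes these medians were -0.0092 and -0.043. At E14.5 the ratios were 2.62 for Ckm, 1.28 for Tnnc2, 1.13 for Acta1 and 1.11 for Tnnt3. With 1 library in each arm these ratios have no replicate check. With the inferred batch in the edgeR fit Acta1 (1.03, adjusted p = 8.0e-07) and Ckm (2.24, adjusted p = 0.021) were called. That fit takes the genotype value from 1 pair of LOF and C1 libraries per stage, so little is left to measure spread. With no low-count filter Acta1 was called.

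In progenitors 10445 genes were tested for genotype and 0.0% were called, with 178 at an unadjusted p under 0.05, and 0 of 18 members were at either threshold. DESeq2 called 0. The median was 0.17 over the members and 0.012 over all genes. Tpm2 was above both controls at both stages (11.2% of all genes) and no member was below (9.77%). The difference of the genotype value between the classes was called for 0.228% of 10958 genes and for 0 members, and for 1 member without the E13.5-LOF library.

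**Figure D5:**
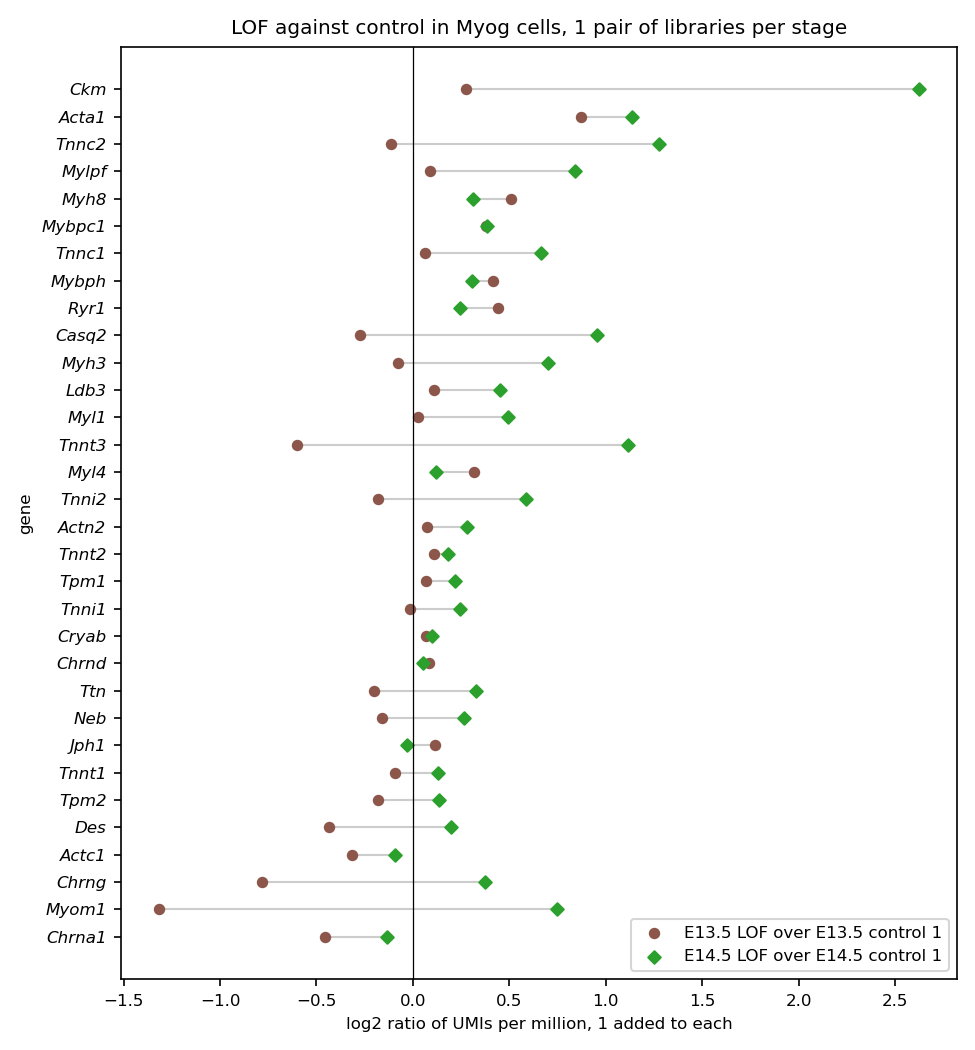
Log2 ratio of LOF to C1 in Myog cells, with 1 CPM added, at E13.5 and E14.5 for each member. Most members lie above 0 at E14.5, where Ckm, Tnnc2, Acta1 and Tnnt3 are highest, and they scatter on both sides of 0 at E13.5.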

How the data were processed

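Single-cell RNA of 6 libraries (10x Genomics version 2 chemistry, 3′ tags) was read from the authors' deposited matrices, which hold raw UMI counts per gene and cell barcode. Per the submitters' processing notes they were made with Cell Ranger on mm10 (GRCm38), and Seurat is also named. Versions, and how reads matching several genes were treated, are not given in the sources used here.

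The cell filter required 1000 UMIs and 500 genes or more, with mitochondrial UMIs making up no more than 10%, and left 40653 of 41594 barcodes. Deposited barcodes held 2568 UMIs or more. Muscle classes were cut as the report states, the Myog class taking precedence. Other classes were cut on marker sums: keratinocytes Krt5, Epcam and Krt15 (at least 4 UMIs), dermal fibroblasts Pdgfra and Lum (3), endothelial cells Cdh5, Kdr and Cldn5 (3), macrophages C1qa, C1qb and Csf1r (4) and pericytes Rgs5, Kcnj8 and Abcc9 (3). 1 further class is not reported here. No doublet caller was used in the results. An alternative left out the cells with the highest simulated-doublet scores, at 0.8% per 1000 cells. Of the Myog cells 6 to 41 per library, and of the progenitors 9 to 33, also met another class and were kept.

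Counts were summed per library and class and tested with edgeR 4.0.16 (R 4.3.3, quasi-likelihood, TMM factors, filterByExpr), with Benjamini-Hochberg adjustment over all genes tested and a threshold of 0.05. DESeq2 1.42.0 was an alternative. The class test had the library as a block, stage tests used the 4 controls, and genotype tests used all 6 libraries with stage. Scripts were tested on simulated data. Each SE of a log2 difference was derived as its absolute value divided by the square root of the F value of edgeR's test. That F value uses a dispersion drawn in part from all genes, so the SE is not an error estimated from the libraries alone. CPM is UMIs per 1000000 UMIs of the class. All 34 members may be named, and of every other list up to 4 genes per comparison, by the largest fold among those called. The lower genes Dmd, Fhl1 and Tpm3, and Lrp4, were named after their values were seen. The members and lists were chosen with earlier results of these data known. The labels name no litters or batches, so p-values measure the spread between these pooled libraries. Gene positions are from GENCODE vM21 (GRCm38).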

Additional observations from a re-analysis of the deposited data

Results flagged for a closer look

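For 6 members the control stage difference (E14.5 minus E13.5) in Myog cells differed from that in progenitors by edgeR's interaction test. The differences of log2 values were 1.08 for Tnnt1, 1.03 for Mylpf, 0.42 for Tpm2 and 2.09 for Chrna1, and -2.27 for Myh8 and -0.88 for Cryab. Chrna1 was below the low-count filter in progenitors (0.799 to 5.47 CPM) and passed through Myog cells (109 to 149 CPM), so its value supports nothing. The progenitor level of Mylpf was near that of keratinocytes and endothelial cells. For 4 members the LOF library lay below both controls at E13.5 and above both at E14.5 in Myog cells. The difference between the stages in the log2 ratio of LOF to the control mean was 0.47 for Tnnt1 (-0.16 at E13.5 and 0.31 at E14.5), 0.62 for Des (-0.34 and 0.28), 1.28 for Ttn (-0.16 and 1.12) and 2.12 for Myom1 (-0.96 and 1.17), the last read as 106 UMIs in all. These 4 differences were not tested, and Ttn and Myom1 were also high in E14.5-C1.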

How the results depend on the processing

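Member counts by edgeR at the adjusted threshold moved by over 1.5 times as follows. For stage in Myog cells (0 called) DESeq2 gave 5, no low-count filter 15 and the inferred batch fit 12. For stage in progenitors (2 called) library totals gave 0, no low-count filter 9, leaving out cells of another class 1, leaving out doublet calls 1, thinning to 3000 UMIs 0 and the inferred batch fit 4. For genotype (0 called) no low-count filter gave 1 in Myog cells, and the inferred batch fit gave 2 in Myog cells and 1 in progenitors. For the stage difference between classes (6 called) DESeq2 gave 3. The causes were not tested. In the inferred batch fit the stage value came from the C2 pair alone and the genotype value from 1 pair of libraries per stage. Its counts therefore rest on little measure of spread between libraries.

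Leaving out each library in turn gave 28 to 30 members for class, 2 to 12 for stage in Myog cells, 2 to 10 for stage in progenitors, 2 to 6 for the stage difference and 0 to 1 for the genotype difference. The stage difference of Myh8 ran from -2.97 to 0.15 and turned sign without E13.5-C1. Over all genes the stage counts ran from 34 to 1924 in Myog cells and from 48 to 2315 in progenitors.

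Replicate numbers in the controls follow accession order, and the labels tie no same-numbered libraries together. Deviations of same-numbered libraries from their stage mean correlated at 0.27 in Myog cells and 0.24 in progenitors across genes, over 2 pairs. With the replicate block, stage called 11 members and 227 genes in Myog cells, and 8 members and 391 genes in progenitors.

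Over all genes, stage in Myog cells (0) gave 70 by DESeq2, 396 with no filter, 9 with cells of another class left out, 6 thinned and 375 with the batch term. In progenitors (74) these were 109, 467, 59, 15 and 444, and library totals gave 0. Genotype (0) gave 43 and 18 with no filter and 21 and 72 with the batch term, in Myog cells and progenitors. The class difference (4696) gave 2353 thinned, and the stage difference (483) gave 57 by DESeq2.

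Of the values of called members under alternatives, 510 kept direction and call, 24 lost the call and 1 reversed. Of the family shares under other cell choices 135 moved by less than the SD of the 2 controls and 17 by more, the latter by at most 1.12 percentage points (Chrng at E13.5, and Actc1, Acta1, Tnni1, Tnni2, Myh3 and Myh8 at E14.5). The tests of the stage and genotype differences between classes under other settings, progenitors with no Myog UMI (30 members) and the fit without E14.5-C1 and E14.5-LOF (29) were added after seeing the data. Depth limits Myh7, Tcap, Ldb3, Myom1 and Ckm most, each read as few UMIs.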
